A study of Mus musculus with 6 samples.

Results

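Expression of 9 genes of glutamine metabolism and amino acid transport was examined in the mouse line TIBx, comparing its parental genotype WT with a line whose genotype is DNAJ-PKAc, with 3 libraries of each (replicates A, B and C). The genes were chosen by name among the 24054 gene symbols of the expected count table: the enzymes Gls2, Glud1 and Glul, and the transporter genes Slc1a5, Slc38a1, Slc38a2, Slc7a5, Slc7a11 and Slc3a2. The cell type in the labels is liver BNL 1ME A.7R.1, a chemically transformed line of mouse embryonic liver, and DNAJ-PKAc is a fusion kinase, part co-chaperone (DNAJB1) and part protein kinase A catalytic subunit, which defines fibrolamellar carcinoma. Both lines were grown in the same serum-containing medium with added L-glutamine, pyruvate and nonessential amino acids. The labels give no agent, dose or time, and they say neither how the fusion was introduced nor whether the line is 1 clone. With 1 line per genotype, an effect of the fusion and a difference between the lines cannot be told apart.

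Glutamine enters cells through sodium-coupled carriers, among them the products of Slc1a5 (ASCT2), Slc38a1 (SNAT1) and Slc38a2 (SNAT2). Inside the cell, glutaminase releases ammonia from it to give glutamate, glutamate dehydrogenase passes the carbon on to 2-oxoglutarate, and glutamine synthetase makes glutamine again. The exchanger LAT1, encoded by Slc7a5, trades internal amino acids such as glutamine for leucine and other large neutral amino acids, and xCT, encoded by Slc7a11, trades glutamate for cystine. LAT1 and xCT are light chains that each reach the plasma membrane bound to the heavy chain 4F2hc, encoded by Slc3a2. In the liver lobule Gls2 is a gene of the periportal zone, and Glul marks the hepatocytes around the central vein.

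Slc7a11 carries, before an annotated start, paired copies of the core of the amino acid response element, the motif through which the stress factor ATF4 acts on this gene. They are shown because Slc7a11 had the largest fitted difference above 0 of the 9 genes, and the window of its partner Slc3a2 is shown for comparison. Both windows are the 250 bases before a start in RefSeq on GRCm38.p6, the assembly of mm10, on the minus strand. Each window lies inside the span of its gene as given below, so the gene reaches further upstream than this start. Windows at other starts were not searched, so a motif there would be missed. Capitals mark the letters TGATGCAA on either strand.
Slc7a11 (chr3:50443614-50443863): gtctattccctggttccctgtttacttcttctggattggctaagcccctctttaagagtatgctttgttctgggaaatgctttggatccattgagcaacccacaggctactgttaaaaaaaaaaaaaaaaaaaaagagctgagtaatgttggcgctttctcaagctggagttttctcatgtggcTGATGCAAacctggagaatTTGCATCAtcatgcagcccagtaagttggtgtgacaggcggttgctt
Slc3a2 (chr19:8713898-8714147): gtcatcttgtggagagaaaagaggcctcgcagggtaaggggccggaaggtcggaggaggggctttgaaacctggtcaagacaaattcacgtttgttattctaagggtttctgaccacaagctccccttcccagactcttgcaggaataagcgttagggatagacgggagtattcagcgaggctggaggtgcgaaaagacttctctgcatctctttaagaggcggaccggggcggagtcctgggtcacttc
In the Slc7a11 window the forward copy spans bases 66 to 59 before the start and the reverse copy bases 47 to 40, so the copies face each other. RefSeq windows were matched for 5 of the 9 genes (Glul, Slc7a11, Glud1, Slc38a2 and Slc3a2), and Slc7a11 was the 1 of these 5 with the motif. Of 32851 promoters of this length, 260 (0.791%) held the motif on either strand and 2 held it more than once. The palindromic cyclic AMP response element TGACGTCA was in none of the 5 windows and in 1.55% of all promoters. Its core TGACG, searched on both strands, was in the window of Slc38a2, where it overlaps a match to the antioxidant response core TGACNNNGC. These motifs were in 17.8% and 10.2% of all promoters. A match in a window is a description of its letters, not evidence of binding.

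The 6 libraries held between 8095549 and 9969590 expected counts, and levels are given below as CPM, counts per 1000000 counts of the library after TMM scaling, so that 1 CPM is about 8 to 10 counts. Where 3 values of a genotype are given, they are in the order of replicates A, B and C. WT A and C lay close to each other, as did DNAJ-PKAc A and B, whereas WT B and DNAJ-PKAc C stood apart from the rest of their groups. They did so in unlike ways. WT B correlated most with its own group, at 0.957 with WT A and 0.958 with WT C. DNAJ-PKAc C correlated at 0.914 and 0.911 with DNAJ-PKAc A and B. Its correlations with WT A, B and C were 0.928, 0.912 and 0.933, so it was closer to WT A and C than to its own group. WT B had 2.66% of its counts on the ribosomal precursor Rn45s, against 0.912% to 1.05% elsewhere. The 8 fixed cell cycle markers (such as Mki67 and Top2a) summed to 1874 CPM in DNAJ-PKAc A, to 2018 CPM in B, to 202 CPM in DNAJ-PKAc C and to between 485 and 576 CPM in WT. The hepatocyte markers Alb, Apoa1, Apoa2, Ttr, Hnf4a, Tat, Serpina1a and Cps1 had 0 counts in all 6 libraries, so the labelled liver origin was not visible in hepatocyte genes. The 7 mesenchymal markers summed to between 24712 and 25927 CPM in WT, with Thy1 at 0. In DNAJ-PKAc they summed to 16214, 15966 and 29497 CPM, so A and B lay below WT and C above it. Of the 6 tested, 1 rose, the smooth muscle actin gene Acta2, at 7.18 to 10.5 CPM in WT and 34.7 to 56.7 CPM in DNAJ-PKAc (log2 2.18, SE 0.27, edgeR adjusted p = 0.0102), a call lost without WT A (0.0527), WT B (0.0569) or WT C (0.0558). The other 5 tested markers of this list lay below 0, with 0 called lower, and the median log2 difference of the list was -0.18. Of the leukocyte markers Ptprc and Cd3e were at 0 throughout, while Cd68 had 9 to 35 counts per library (1.05 to 4.32 CPM). Of the endothelial markers Kdr was at 0 and Cdh5 had 3 to 19 counts per library. The part of Acta2, Cd68 and Cdh5 in the results below was not tested.

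None of the 9 genes differed between the lines at an adjusted p under 0.05 (edgeR quasi-likelihood test, Benjamini-Hochberg adjustment over the 10975 genes tested). All 9 passed the filter on low counts, and the background was 385 genes called, or 3.51% of those tested. At an unadjusted p under 0.05 the test passed 1 of the 9, Glud1, against 2363 of all genes tested, and DESeq2 and limma-voom also called 0 of the 9. In bulk RNA, fewer cells that express a gene and less of its RNA per cell cannot be told apart. The fitted log2 difference, DNAJ-PKAc minus WT, was above 0 for 6 genes and below 0 for 3, with a median of 0.25 beside 0.05 over all genes tested. The groups did not overlap for 2 of the 9, Glud1 and Gls2, where 28.9% of all genes tested had groups that did not overlap. Nothing in the labels ties the replicates to separate cultures, so each p rests on a spread among libraries that may be technical.

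**Figure D1:**
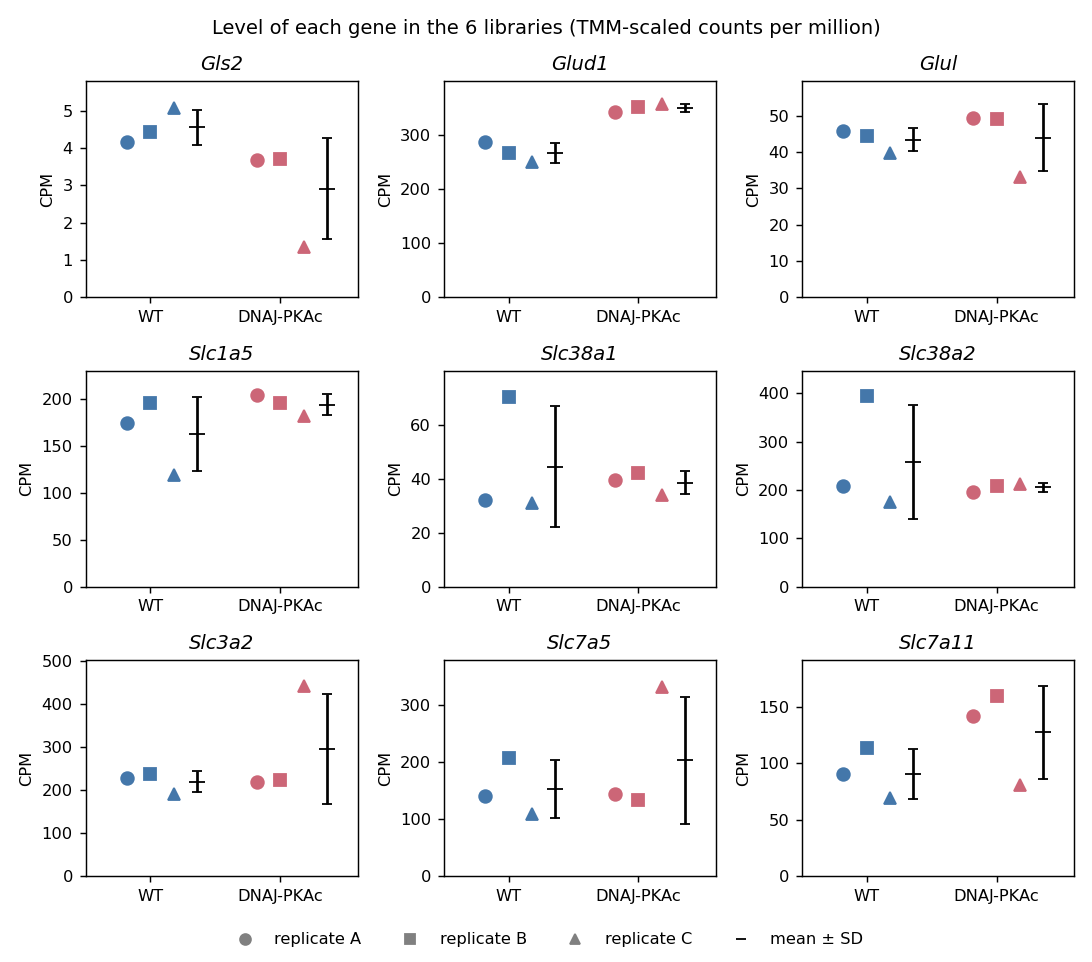
Level of each of the 9 genes in CPM (vertical axes, each from 0) in the 3 WT and 3 DNAJ-PKAc libraries, with the marker shape giving the replicate and the bar the mean ± SD (n = 3). Glud1 and Gls2 have groups that do not overlap, WT B is high for Slc38a1 and Slc38a2, and DNAJ-PKAc C is high for Slc3a2 and Slc7a5.

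Among the enzymes, Glud1, glutamate dehydrogenase (chromosome 14, 34310727 to 34345033 in mm10), was the most even within each line. It measured 286, 265 and 249 CPM in the WT libraries, against 342, 352 and 356 CPM in the DNAJ-PKAc libraries. Every DNAJ-PKAc library lay above every WT library, DNAJ-PKAc C included. The means were 267 ± 18.5 and 349.8 ± 7.47 CPM (SD, n = 3), a fold of 1.31 (log2 0.39, SE 0.14, 95% interval 0.06 to 0.72). The unadjusted edgeR p was 0.0262, and the difference missed the threshold after adjustment (edgeR adjusted p = 0.181). With both libraries that stood apart (WT B, DNAJ-PKAc C) left out, the log2 difference was 0.33 and passed it (edgeR adjusted p = 0.0125). In that fit 48.5% of all genes tested passed, and the libraries left out were those seen to stand apart in these same data.

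Gls2, the liver type glutaminase (chromosome 10, 128194635 to 128210004), was the lowest of the 9 genes. It had 38, 38 and 46 counts in the WT libraries and 37, 30 and 11 in the DNAJ-PKAc libraries. In CPM these were 4.16, 4.43 and 5.08 against 3.66, 3.70 and 1.34. All DNAJ-PKAc libraries lay below all WT libraries, A and B by a small step and C well below them. The log2 difference of -0.64 (SE 0.41, 95% interval -1.60 to 0.32) missed the threshold (edgeR adjusted p = 0.379), and it was -0.31 without DNAJ-PKAc C. Gls2 shares 97 exon bases with Spryd4 on the opposite strand, and whether counting used the strand is not stated, so its few counts are uncertain.

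Glul, glutamine synthetase (chromosome 1, 153899929 to 153909723), had levels of 45.9, 44.5 and 39.9 CPM in WT, beside 49.4, 49.2 and 33.3 CPM in DNAJ-PKAc. The groups overlapped, with DNAJ-PKAc A and B the highest and DNAJ-PKAc C the lowest of the 6 libraries. The log2 difference was 0.02 (SE 0.20, 95% interval -0.45 to 0.48; edgeR adjusted p = 0.962), so the interval reaches from below 0 to above it. Glul shares 116 exon bases with Teddm2 on the opposite strand and 93 with the microRNA gene Mir8114 on the same strand. Of the genes listed with Glul for the zone around the central vein, which is set by beta-catenin, Cyp2e1, Cyp1a2, Lgr5, Rhbg and Slc1a2 had 0 counts in all 6 libraries.

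The ratio of Glul to Glud1 counts within a library does not depend on how libraries are scaled. It was 0.161, 0.167 and 0.160 in WT and 0.145, 0.140 and 0.0934 in DNAJ-PKAc. Every DNAJ-PKAc library had less Glul per Glud1 count than every WT library. The mean log2 ratio differed by -0.40, from -2.62 ± 0.0358 in WT to -3.02 ± 0.351 in DNAJ-PKAc (SD, n = 3; 2-sided exact permutation test, p = 0.1, the smallest that 3 against 3 can give; adjusted p = 0.4 over the 4 ratios examined). Without DNAJ-PKAc C the difference was -0.20, and groups already apart cannot come to overlap when a library is left out.

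For each of the sodium-coupled carriers, 1 WT library stood apart from the other 5. Slc1a5, which encodes ASCT2 (chromosome 7, 16781334 to 16798274), stood at 174, 196 and 119 CPM in WT and, in the same order, at 204, 195 and 182 CPM in DNAJ-PKAc. WT C was low, and WT B lay between the DNAJ-PKAc libraries. The log2 difference was 0.25 (SE 0.21, 95% interval -0.24 to 0.74; edgeR adjusted p = 0.501), and without WT C it was 0.07.

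Slc38a2, which encodes SNAT2 (chromosome 15, 96687392 to 96699728), measured 207, 393 and 175 CPM in the WT libraries, against 195, 208 and 213 CPM in the DNAJ-PKAc libraries. Its neighbour Slc38a1 (96571418 to 96643438), which encodes SNAT1, had levels of 32.0, 70.3 and 31.1 CPM in WT, beside 39.4, 42.2 and 34.0 CPM in DNAJ-PKAc. In both genes WT B was the highest library and the other WT libraries lay near or below the DNAJ-PKAc ones. The log2 differences were -0.33 for Slc38a2 (SE 0.30, 95% interval -1.05 to 0.38; edgeR adjusted p = 0.543) and -0.21 for Slc38a1 (SE 0.33, interval -0.99 to 0.58; adjusted p = 0.741). Both turned above 0 without WT B, to 0.06 and 0.25, with neither past the threshold. With DNAJ-PKAc C also left out, Slc38a1 was at 0.32 (edgeR adjusted p = 0.0358) and Slc38a2 at 0.03 (adjusted p = 0.834), where 48.5% of all genes tested passed.

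Slc38a1 and Slc38a2 had the most similar profiles of the 9 genes, with a root mean square difference of 0.15 between their log2 levels, each centred on its own mean over the 6 libraries. The ratio of Slc38a2 to Slc38a1 counts ran from 4.93 to 6.48, and its mean log2 value differed by -0.14 between the lines (exact permutation test, 2-sided, p = 0.3; adjusted p = 0.6 over the 4 ratios). WT B was at 5.60, beside 6.48 and 5.61 in WT A and C, so the high levels of both genes in that library left their ratio within the range of the others. The higher share of Rn45s in WT B moved with these values, and its part in them was not tested.

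Slc3a2, the heavy chain 4F2hc (chromosome 19, 8706882 to 8723369), stood at 229, 239 and 193 CPM in WT and, in the same order, at 220.3, 225 and 443 CPM in DNAJ-PKAc. Slc7a5, the light chain LAT1 (chromosome 8, 121881146 to 121907686), measured 140.4, 208 and 110.1 CPM in the WT libraries, against 144, 133 and 332 CPM in the DNAJ-PKAc libraries. For both, DNAJ-PKAc C stood above the other 5 libraries, while DNAJ-PKAc A and B lay within the WT range. The fitted log2 differences were 0.43 for Slc3a2 (SE 0.30, 95% interval -0.27 to 1.12; edgeR adjusted p = 0.415) and 0.41 for Slc7a5 (SE 0.41, interval -0.55 to 1.37; adjusted p = 0.571). Without DNAJ-PKAc C they were 0.02 (edgeR adjusted p = 0.942) and -0.14 (adjusted p = 0.729), so the fitted differences of both genes rested on that library.

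Slc7a11, the cystine and glutamate exchanger xCT (chromosome 3, 50364936 to 50499087), had the opposite split. It had levels of 90.3, 113 and 69.2 CPM in WT, beside 142, 159 and 80.5 CPM in DNAJ-PKAc. DNAJ-PKAc A and B lay above every WT library, and DNAJ-PKAc C lay inside the WT range. The log2 difference was 0.49 (SE 0.30, 95% interval -0.21 to 1.18; edgeR adjusted p = 0.361). Without DNAJ-PKAc C it was 0.73 (SE 0.21), a fold of 1.66, and passed the threshold (edgeR adjusted p = 0.0473), the 1 gene of the 9 to do so where 25.3% of all genes tested did. Without WT B as well it was 0.87 (edgeR adjusted p = 5.22e-05), and 3 of the 9 genes then passed (Glud1, Slc38a1 and Slc7a11) against 48.5% of all genes tested. Both shares lie below the background of the same fits.

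**Figure D2:**
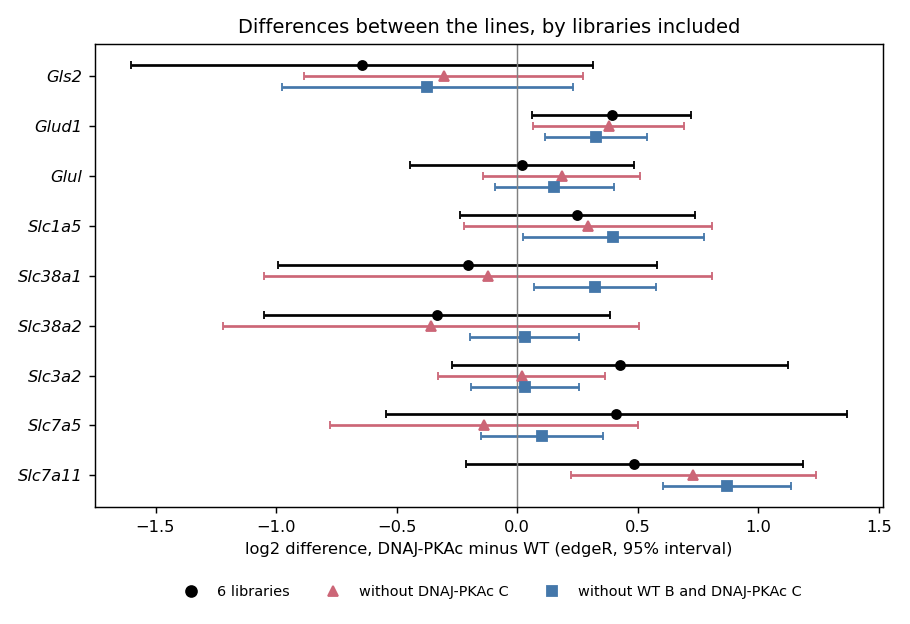
Fitted log2 difference of each gene, DNAJ-PKAc minus WT, with its 95% interval (horizontal axis), for all 6 libraries, without DNAJ-PKAc C, and with WT B left out as well. Slc3a2 and Slc7a5 move to near 0 without DNAJ-PKAc C, Slc7a11 moves to 0.73 and 0.87, and Glud1 stays between 0.33 and 0.39.

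Light and heavy chains were also compared within each library. The ratio of Slc7a5 to Slc3a2 counts was 0.613, 0.872 and 0.571 in WT and 0.655, 0.593 and 0.750 in DNAJ-PKAc, overlapping ranges with a mean log2 difference of -0.02 (exact permutation test, 2-sided, p = 0.9; adjusted p = 1 over the 4 ratios). The ratio of Slc7a11 to Slc3a2 counts was 0.394, 0.474 and 0.359 in WT and 0.645, 0.708 and 0.182 in DNAJ-PKAc. Here DNAJ-PKAc A and B were the 2 highest libraries and DNAJ-PKAc C the lowest, and the mean log2 difference was 0.10 (exact permutation test, 2-sided, p = 1; adjusted p = 1 over the 4 ratios). Without DNAJ-PKAc C it was 0.73.

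**Figure D3:**
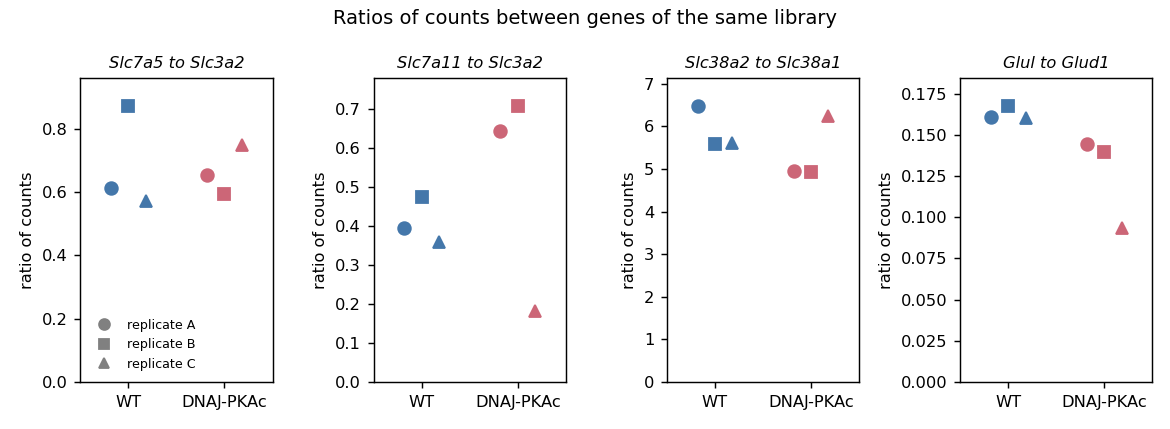
Ratio of the counts of paired genes within each library (vertical axes, each from 0), with the marker shape giving the replicate. DNAJ-PKAc C has the lowest ratio of Slc7a11 to Slc3a2, at 0.182, and of Glul to Glud1, at 0.0934.

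DNAJ-PKAc C also stood apart from A and B in cell cycle markers and in part of the stress factors, given here as levels. DNAJ-PKAc C had the lowest summed cell cycle markers of the 6 libraries, at 202 CPM. It also had the highest level of the stress factor genes Atf4 (758 CPM, against 458 to 620 in the other 5) and Ddit3 (104 CPM, against 34.7 to 58.4), and of Chac1, which encodes a glutathione-degrading enzyme (182 CPM, against 75.7 to 146). Nfe2l2, which encodes the antioxidant factor NRF2, was at 205 CPM in DNAJ-PKAc C and at 152 to 189 CPM in the others. Of the 8 stress factors 6 were highest in DNAJ-PKAc C, whereas Myc was lowest there, at 42.2 CPM, and Eif2ak4 was at 38.8 CPM in C, below A (46.3 CPM) and B (41.1 CPM). How often DNAJ-PKAc C was the highest library over all genes was not counted, so 6 of 8 has no background here. The part of cell cycle and stress genes in the levels of Slc3a2, Slc7a5 and Slc7a11 was not tested. Slc3a2, Slc7a5 and Atf4 were highest in the same library, in which Slc7a11 was not.

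For the pair of genes with the smallest edgeR p, Glud1 and Slc7a11, the genes of most similar profile were sought among the 8833 other genes of at least 10 CPM, by the root mean square difference of centred log2 CPM over the 6 libraries. Nearest to Slc7a11 were Polr1a (0.05), Nap1l1 (0.07) and Urb1 (0.08), where the median over all genes compared was 0.50. Polr1a, the largest subunit of RNA polymerase I, stood at 116, 155 and 96.5 CPM in WT and, in the same order, at 186, 201 and 103 CPM in DNAJ-PKAc. That is the order of libraries seen for Slc7a11, with DNAJ-PKAc A and B high and DNAJ-PKAc C within the WT range. The shared order follows from how Polr1a was picked, as the nearest of 8833 genes in these same libraries. It is therefore no separate result, and a link between these genes was not tested. Nearest to Glud1 were Tmem55a (0.04), the clathrin adaptor gene Picalm (0.05) and 2510003E04Rik (0.05), with a median of 0.33 over all genes compared.

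Set per length of the longest coding transcript in GENCODE M21, the 9 genes kept a similar order in both lines. In WT the highest were Glud1 at 78.7 ± 5.44 and Slc3a2 at 78.3 ± 8.65 CPM per kb (SD, n = 3), whose ranges overlapped. Slc1a5 (58.9 ± 14.3), Slc38a2 (55.4 ± 25.3) and Slc7a5 (43.5 ± 14.3) followed, each overlapping its neighbours in the order. A step separated them from Glul at 15.5 ± 1.13, and Glul from Slc7a11 at 9.86 ± 2.39. Slc7a11 overlapped Slc38a1 at 6.12 ± 3.07, and Gls2 lay below all of these at 1.77 ± 0.183 CPM per kb. In DNAJ-PKAc Slc3a2 at 105 ± 45.2 and Glud1 at 103 ± 2.20 overlapped at the top, Glul at 15.7 ± 3.31 and Slc7a11 at 13.8 ± 4.49 overlapped, and Gls2 was again last at 1.13 ± 0.526 CPM per kb. The isoform mix behind the counts is not given, so a gene with a long annotated transcript, such as Slc7a11 at 9.223 kb, could lie higher with a shorter form.

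**Figure D4:**
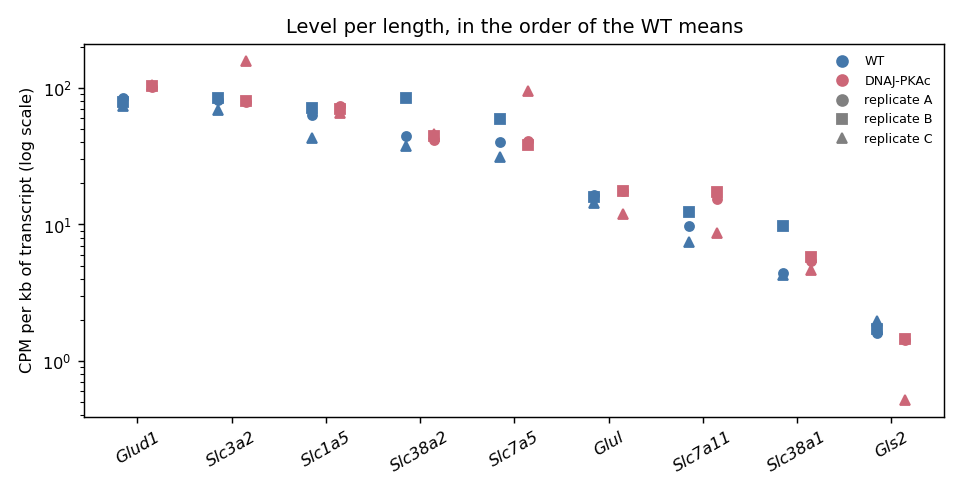
Level of each gene in CPM per kb of its longest coding transcript (vertical log axis) in the 6 libraries, in the order of the WT means. Glud1 and Slc3a2 share the top and Gls2 is the lowest in both lines.

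Other genes of the same pathways came from 7 lists of 72 genes present in the table. Among other carriers of glutamine and neutral amino acids, 17 were listed and 10 were tested, of which 1 rose and 0 fell, with 2 above 0 and 8 below 0 and a median log2 difference of -0.47. Over all 10975 genes tested, 3.51% were called, 5917 lay above 0 and 5058 below 0. Groups did not overlap for 28.9% of them. The gene that rose was Slc7a6 (chromosome 8, 106168219 to 106198714), which encodes y+LAT2, another light chain of 4F2hc that exchanges glutamine for arginine. Slc7a6 measured 80.7, 70.3 and 100.4 CPM in the WT libraries, against 164, 161 and 169 CPM in the DNAJ-PKAc libraries. All 3 DNAJ-PKAc libraries, C included, were higher than each of the WT libraries, and the fold was 1.97 (log2 0.98, SE 0.17, 95% interval 0.57 to 1.38; edgeR adjusted p = 0.0313). The call was lost without WT A (edgeR adjusted p = 0.14), WT B (0.0743), WT C (0.0674), DNAJ-PKAc A (0.128) or DNAJ-PKAc B (0.12), with upper-quartile scaling (0.0507) and with the replicate letter as a block (0.0703), while the log2 difference stayed between 0.80 and 1.13 in all 15 alternatives. Slc7a6 shares no exon bases with another annotated gene in GENCODE M21.

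In the same list Slc38a10 was at log2 -0.54 (SE 0.14, edgeR adjusted p = 0.0889, 0.0236 without DNAJ-PKAc C, and DESeq2 adjusted p = 0.00263) and Slc43a2, which encodes the leucine carrier LAT4, at -2.59 (SE 0.66, adjusted p = 0.0899), with groups that did not overlap. DESeq2 called 3 genes of this list, and it called 974 over all genes against 385 by edgeR. Slc43a2 measured 7.78, 11.8 and 12.5 CPM in the WT libraries, against 0.594, 0.864 and 3.90 CPM in the DNAJ-PKAc libraries, so its level was low in every library. Slc38a5, Slc6a14, Slc6a19 and Slc7a8 had 0 counts throughout. Of cationic and acidic amino acid carriers 2 of 10 were tested, and 0 rose or fell by edgeR, with 1 at an unadjusted p under 0.05: Slc1a3, a glutamate carrier, was at log2 0.52 (SE 0.21, adjusted p = 0.207). That unadjusted threshold was passed by 2363 of all 10975 genes tested. Slc7a1, the cationic carrier CAT1, was at 273 CPM in WT B and at 48.7 to 114 CPM elsewhere, another gene with its highest level in that library.

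Enzymes that use or make glutamate held 0 genes that passed the test. Of 15 listed, 14 were tested, 13 lay above 0, and 0 rose or fell by edgeR, with 3 at an unadjusted p under 0.05 and a median log2 difference of 0.40. Over all 10975 genes tested, 5917 lay above 0 and 2363 were at an unadjusted p under 0.05. Psat1, the serine pathway transaminase, was at log2 0.56 (SE 0.18, edgeR adjusted p = 0.152), Got2, the mitochondrial aspartate transaminase, at 0.52 (SE 0.17, adjusted p = 0.157), and Bcat1, a branched-chain transaminase, at 0.60 (SE 0.23, adjusted p = 0.201). Gclc and Gclm, which encode the subunits of the enzyme that joins cysteine to glutamate for glutathione, were at 0.39 and 0.51 (edgeR adjusted p = 0.322 and 0.418). Gclm reached 34.4 CPM in DNAJ-PKAc A, 35.7 CPM in B and 15.7 CPM in C, against 16.8, 26.8 and 16.7 CPM in WT. Like Slc7a11, it was above every WT library in A and B but not in C.

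The mitochondrial carriers of glutamate and aspartate numbered 3 tested of 4, with all 3 above 0 and 0 rising or falling by edgeR (2 at an unadjusted p under 0.05). The background was 5917 above 0 and 2363 at an unadjusted p under 0.05 among all 10975 genes tested, so 3 genes show no trend of their own. Slc25a12, an aspartate and glutamate carrier, had levels of 43.6, 46.7 and 51.7 CPM in WT, beside 69.6, 78.8 and 77.0 CPM in DNAJ-PKAc. Its groups did not overlap, and the log2 difference of 0.67 (SE 0.15) missed the threshold (edgeR adjusted p = 0.0603), passing it in DESeq2 and without DNAJ-PKAc C (edgeR adjusted p = 0.0192). Slc25a13, the other carrier of this kind, was at log2 0.70 (SE 0.26, adjusted p = 0.188).

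Genes that sense leucine and other amino acids for the kinase mTORC1 showed 0 calls among 11 tested (2 at an unadjusted p under 0.05), with a median log2 difference of 0.02. For this list and those below, the background was 2363 of 10975 genes tested at an unadjusted p under 0.05. Rptor, the mTORC1 subunit raptor, stood at 140.4, 245 and 134 CPM in WT and, in the same order, at 67.5, 64.8 and 89.2 CPM in DNAJ-PKAc. Its groups did not overlap, and the log2 difference of -1.23 (SE 0.28) missed the threshold (edgeR adjusted p = 0.0649), but passed it in DESeq2, with upper-quartile scaling and without DNAJ-PKAc C (edgeR adjusted p = 0.0181). Rragd, a Rag GTPase gene, was at -0.80 (SE 0.27, edgeR adjusted p = 0.161). Of the 8 amino acid stress factors, all tested, 0 were called by edgeR, with 1 at an unadjusted p under 0.05 (Eif2ak4, the uncharged tRNA sensor GCN2, log2 0.37, adjusted p = 0.23). Nfe2l2 was at 0.19 (adjusted p = 0.473). In the list of genes of the glutamine synthetase zone, 2 of 8 were tested and 0 called by edgeR, with 1 at an unadjusted p under 0.05. Those tested were Tbx3 at -1.43 (edgeR adjusted p = 0.0718), which passed in DESeq2 (adjusted p = 0.00119) and with upper-quartile scaling (edgeR adjusted p = 0.0426), and the ornithine transaminase gene Oat at 0.41 (adjusted p = 0.289).

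In 5 of the 7 lists the count changed without DNAJ-PKAc C. Without that library, edgeR called 4 of the 10 other neutral amino acid carriers, 5 of the 14 glutamate enzymes (Psat1 at an adjusted p of 0.0280 and Got2 at 0.0117 among them), 2 of the 3 mitochondrial carriers, 3 of the 11 sensing genes and 2 of the 8 stress factors, where 25.3% of all genes tested were called in either direction. The cationic and acidic carriers and the zone list stayed at 0. The list sizes given here are the numbers tested with all 6 libraries. The fit without DNAJ-PKAc C was filtered anew and tested 11096 genes. The median log2 difference with all 6 libraries was 0.67 for the mitochondrial carriers and 0.11 for the stress factors, against 0.05 over all genes tested.

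**Figure D5:**
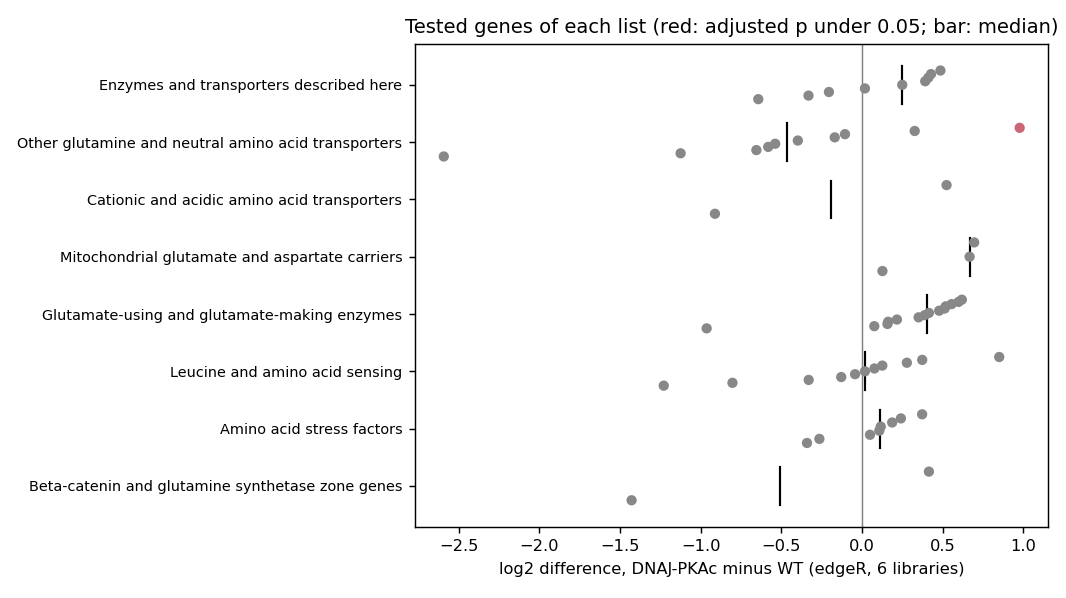
Fitted log2 difference, DNAJ-PKAc minus WT (horizontal axis), of each tested gene in the 9 enzymes and transporters and in 7 other lists, with the list's median as a bar and genes past an adjusted p of 0.05 in red. Slc7a6, at 0.98, is the 1 gene in red.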

How the data were processed

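Total RNA libraries of 2 mouse cell lines, 3 per genotype, were made with a stranded kit, per the labels' protocols. The authors deposited expected counts per gene symbol, not normalized, per the file headers. Per the submitters' processing notes, which give no roles, the tools named are RSEM 1.3.0 and STAR 2.5.2b, on mm10. Annotation, filters and the strand setting of counting: not given in the sources used here.

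Expected counts were rounded to whole numbers, filtered with filterByExpr (minimum count 10) and scaled by TMM. edgeR 4.0.16 in R 4.3.3 fitted all 6 libraries with the group as the only term (quasi-likelihood, robust) and adjusted p-values over all genes, with a threshold of 0.05. The 95% intervals come from that fit, and ratios of counts were tested by exact permutation. Alternatives used DESeq2 1.42.0, limma-voom (limma 3.58.1), other scalings and filters, the replicate letter as a block and left-out libraries. Named were the 9 genes, up to 4 per list by smallest p, and the 3 genes of nearest profile to each of 2 members. Polr1a's values, single stress genes, Gclm, Acta2, Cd68, Cdh5 and the genes named at 0 were chosen after their values were seen. The genes and lists were chosen with earlier results of these data known. Positions came from RefSeq on GRCm38.p6 and lengths from GENCODE M21.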

Additional observations from a re-analysis of the deposited data

How the results depend on the processing

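With other scalings, filters, tools or dispersions, with the block, or with any 1 library but DNAJ-PKAc C left out, 0 of the 9 genes were called. Leaving out 1 library gave 0 to 1 of the 9 (1 without DNAJ-PKAc C) and leaving out both DNAJ-PKAc C and WT B gave 3. Over all genes, 385 calls became 974 with DESeq2, 199 with the replicate letter as a replicate block, 77 to 2808 with 1 library left out and 5336 without both. The labels do not say whether libraries that share a letter were handled together. Same-letter libraries deviated together by correlations of 0.211, -0.198 and 0.0282 for A, B and C, and pairs of unlike letters by -0.282 to 0.303. With WT B and DNAJ-PKAc C apart from their groups, these few values cannot decide whether the letters are pairs.

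The log2 difference of Glul changed sign with RLE (-0.0235) and upper-quartile factors (-0.0496), DESeq2 (-0.0233), limma-voom (-0.0006) and the replicate block (-0.0025), and ran from -0.072 to 0.184 with 1 library left out. With 1 library left out, Slc38a1 ran from -0.41 to 0.25, Slc38a2 from -0.55 to 0.061, Slc7a5 from -0.14 to 0.65 and Slc7a1 from -1.41 to 0.060. Without WT B and DNAJ-PKAc C, Slc38a1 was at 0.32 and Slc38a2 at 0.031. The log2 ratio of Slc7a5 to Slc3a2 ran from -0.14 to 0.16 with 1 library left out and was 0.074 without both, and that of Slc7a11 to Slc3a2 ran from -0.25 to 0.73. The cause of these changes was not tested. Glud1, Slc1a5, Slc7a11, Slc3a2 (above 0) and Gls2 (below 0) kept their sign in all 15 alternatives. Gls2 rests on 11 to 46 counts per library.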
